A study of Mus musculus with 22 samples.

Results

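A set of 10 genes that mark T cells, natural killer (NK) cells and B cells was followed in the livers of Cre and liver-Flcn-/- mice on chow or on a methionine and choline deficient (MCD) diet. The 10 rows were taken by gene symbol from a table of 55573 genes, and each symbol matched 1 row. They are *Cd3e*, *Cd3g*, *Cd4* and *Cd8a* for T cells, *Nkg7*, *Gzma*, *Gzmb* and *Klrk1* for NK and cytotoxic T cells, and *Cd79a* and *Cd79b* for B cells. All were rare in these livers, with 1 to 55 counts per gene in any library. *Cd8a*, with a mean of 9.64 counts over the 22 libraries, was too low to test with the minimum mean of 10 counts used here, and the other 9 were tested.

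Bulk liver mRNA was sequenced from 22 mice, 1 library each. On chow there were 6 Cre and 5 liver-Flcn-/- mice, and on MCD 5 Cre and 6 liver-Flcn-/- mice. All were C57BL/6 mice, 3 months old, and the MCD diet began at 6 weeks of age and lasted 6 weeks. Cre mice were Albumin-Cre+/- with wild-type Flcn (Flcn WT/WT), and liver-Flcn-/- mice carried floxed Flcn alleles (Flcn f/f) with Albumin-Cre+/-, so the recombinase was present in both genotypes. Albumin-Cre acts in hepatocytes, and lymphocytes are not its target. Counts on genes ranged from 13751347 to 21144388 per library. Levels are given as CPM, counts scaled to library size by edgeR's TMM method. An adjusted p comes from the quasi-likelihood test of edgeR, two-sided, after Benjamini-Hochberg adjustment over 14062 genes. A gene was called at an adjusted p under 0.05, and a rise or fall below always means such a call.

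T cells recognise antigen through a receptor that signals by the CD3 chains, together with the coreceptors CD4 or CD8. NK cells and cytotoxic T cells kill target cells by releasing granules that hold granzymes, and the liver is known for a large resident population of NK and related cells. B cells signal through the immunoglobulin on their surface and its partners CD79A and CD79B, and they mature into plasma cells that secrete antibody.

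Some libraries stood apart before any comparison was made. In the study's sequencing statistics 5 chow libraries had the lowest share of uniquely mapped reads, namely Cre chow mice 1, 5 and 6 and liver-Flcn-/- chow mice 1 and 3. Sex is not in the sample labels, and read from *Xist* and Y-linked counts these 5 were all of the male mice on chow. Sex and mapping share therefore cannot be told apart on chow. Each of the 4 groups held both sexes, with 3 females in each, and 3, 2, 2 and 3 males in the order Cre chow, Cre MCD, liver-Flcn-/- chow and liver-Flcn-/- MCD. The results below are therefore also given without these 5 libraries and within each sex. A further library, Cre MCD mouse 3, held RNA of skeletal muscle, and its summed level of 15 muscle genes was 3799 CPM. The other Cre mice on MCD had 23.5, 2.76, 180 and 1.38 CPM (mice 1, 2, 4 and 5), with *Myh1*, a fast muscle myosin, as the most abundant gene of the list. Mice 3 and 4 were the 2 males of this group. In the other groups the highest sums were 84.8 CPM in liver-Flcn-/- MCD mouse 3 and 16.9 CPM in liver-Flcn-/- chow mouse 3. Hepatocyte genes were abundant under the liver label, with a summed level of 147930 ± 18269 CPM (SD, n = 6) over 9 genes in Cre mice on chow, led by *Alb*, the gene of albumin.

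The targeted gene *Flcn* (ENSMUSG00000032633, chromosome 11, 59791408 to 59810016, as all positions here on GRCm38) had 26.1 to 40.2 CPM (median 31.8) in the 6 Cre mice on chow, and 24.2, 20.0, 16.7, 19.4 and 21.8 CPM in the 5 liver-Flcn-/- mice on chow. The knockout had less of it (log2 fold change −0.63, SE 0.173, edgeR adjusted p = 0.025), and the groups did not overlap. Without the 5 chow libraries of low mapping share the difference was −0.55 and did not pass (edgeR adjusted p = 0.24). On MCD it ranged from 18.2 to 39.9 CPM in Cre mice and from 17.6 to 32.6 CPM in liver-Flcn-/- mice, and the difference did not pass (−0.16, edgeR adjusted p = 0.57). These counts cover the whole gene and all liver cells, so they do not isolate the floxed exon in hepatocytes.

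With MCD, 6 of the 9 tested markers fell in liver-Flcn-/- mice and none rose. They were *Cd3e*, *Cd4*, *Nkg7*, *Gzma*, *Gzmb* and *Cd79a*, with log2 fold changes from −2.14 to −0.84. Of all 14062 tested genes 45.0% passed in the same comparison, and 22.5% fell. Other tools called 6 markers lower (limma-voom and DESeq2) or 7 (exact permutation). These tools called 22.3%, 22.5% and 21.7% of all tested genes lower. The median log2 fold change was −0.99 for the markers and 0.00 for all tested genes. In Cre mice 0 of the 9 passed with MCD, while 57.5% of tested genes did, 29.3% rising and 28.2% falling. In whole liver RNA, fewer cells of a type and less RNA per cell cannot be told apart.

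**Figure D1:**
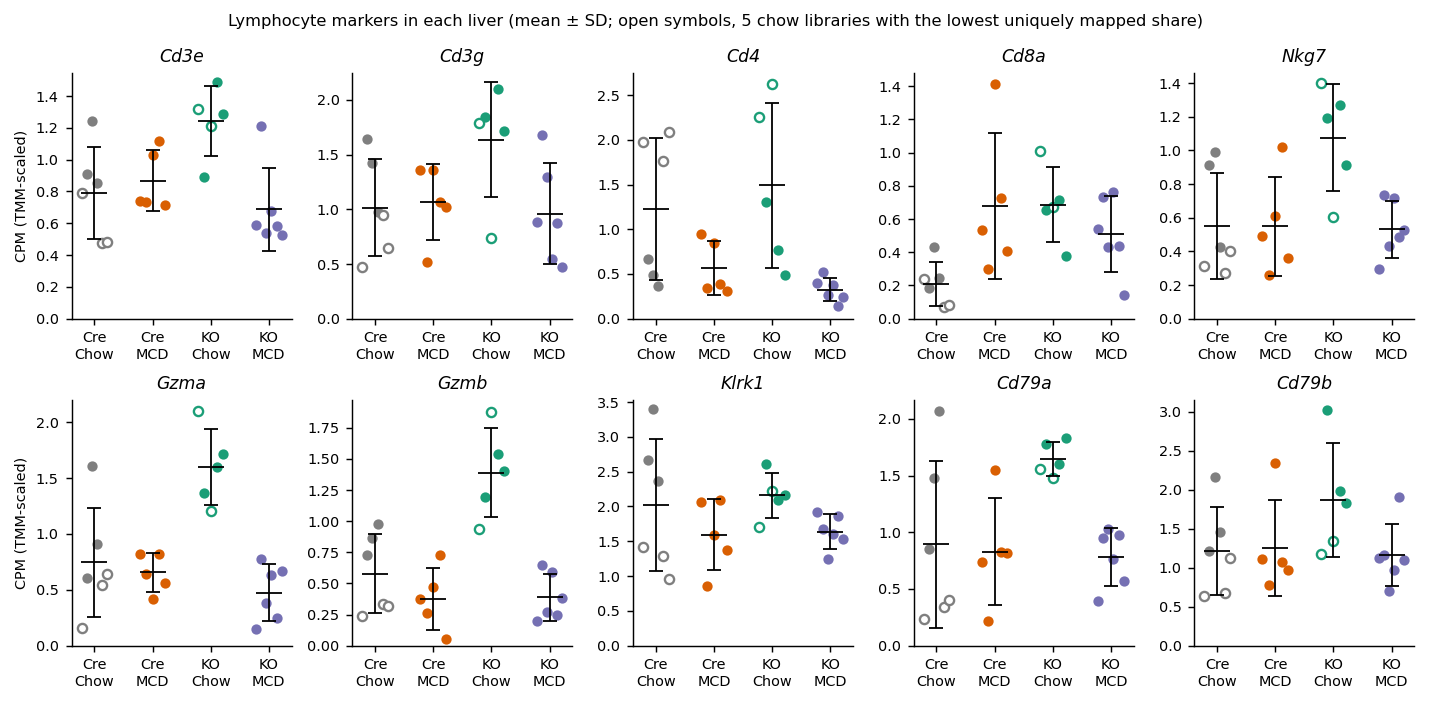
Level of each of the 10 markers in each liver (y axis, CPM) by group (x axis), with 1 point per mouse and bars for the mean ± SD (n = 6, 5, 5 and 6 from left to right). Open circles are the 5 chow libraries with the lowest uniquely mapped share, and for Gzma, Gzmb and Cd79a every liver-Flcn-/- mouse on chow lies above every liver-Flcn-/- mouse on MCD.

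*Cd3e* (ENSMUSG00000032093, chromosome 9, 44998740 to 45009627, minus strand) encodes the epsilon chain of CD3. It had 1.32, 0.891, 1.21, 1.49 and 1.29 CPM in the 5 liver-Flcn-/- mice on chow and 0.525 to 1.21 CPM (median 0.589) in the 6 on MCD. Of the 6 MCD mice 5 were below every chow mouse, and MCD mouse 2, at 1.21 CPM, was level with chow mouse 3. The log2 fold change was −0.84 (SE 0.259, edgeR adjusted p = 0.011), a 1.79-fold lower level. In Cre mice *Cd3e* had 0.474 to 1.24 CPM (median 0.821) on chow and 0.741, 0.733, 1.03, 1.12 and 0.717 CPM on MCD, ranges that overlapped throughout (0.12, SE 0.265, edgeR adjusted p = 0.72). Exons of *Cd3e* overlap those of Gm48719 on the plus strand, and since it is not given in the sources used here whether counting used the strand, reads of the 2 genes may not be separated.

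*Cd3g* (ENSMUSG00000002033, chromosome 9, 44969572 to 44980431), the gamma chain of CD3, did not pass. Its level was 1.64 ± 0.522 CPM (SD, n = 5) on chow and 0.961 ± 0.457 CPM (SD, n = 6) on MCD in liver-Flcn-/- mice (−0.77, SE 0.347, edgeR adjusted p = 0.076). Of the 5 chow mice 4 were above every MCD mouse, and the fifth, chow mouse 3, had 0.739 CPM. In Cre mice the means were 1.02 ± 0.445 CPM (SD, n = 6) and 1.07 ± 0.345 CPM (SD, n = 5).

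*Cd4* (ENSMUSG00000023274, chromosome 6, 124864692 to 124888221), the coreceptor of helper T cells, had the largest log2 fold change among the markers. It had 2.26, 1.31, 2.62, 0.772 and 0.485 CPM in liver-Flcn-/- mice on chow and 0.147 to 0.517 CPM (median 0.325) on MCD. Only chow mouse 5 lay within the MCD range, and the fall was −2.14 (SE 0.509, edgeR adjusted p = 0.0017). In Cre mice *Cd4* had 1.98, 1.76 and 2.09 CPM in chow mice 1, 5 and 6, the libraries of low mapping share, and 0.668, 0.494 and 0.365 CPM in chow mice 2, 3 and 4. On MCD the 5 Cre mice showed 0.947, 0.345, 0.844, 0.388 and 0.307 CPM, and the difference did not pass (−1.07, SE 0.497, edgeR adjusted p = 0.071). The 5 chow libraries of low mapping share held the 5 highest *Cd4* values of all 22 livers. Without them the fall in liver-Flcn-/- mice was −1.36 (SE 0.432, edgeR adjusted p = 0.017), and the value in Cre mice changed sign to 0.16 (adjusted p = 0.80).

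*Cd8a* (ENSMUSG00000053977, chromosome 6, 71373427 to 71379173), a chain of the coreceptor of cytotoxic T cells, had 3, 3, 7, 4, 1 and 1 counts in Cre mice on chow and 13, 7, 30, 15 and 8 counts on MCD. Liver-Flcn-/- mice had 13, 11, 10, 13 and 7 counts on chow and 11, 17, 8, 18, 9 and 3 counts on MCD. Cre mice on chow were thus the lowest group, with 0.207 ± 0.133 CPM (SD, n = 6) against 0.676 ± 0.438 CPM (SD, n = 5) on MCD, and 7 counts was both the highest chow and the lowest MCD value. In an edgeR fit with no minimum count, over 32124 genes, *Cd8a* rose with MCD in Cre mice by 1.66 on the log2 scale (SE 0.474, adjusted p = 0.0083), where 15.1% of genes rose. Without the 5 chow libraries of low mapping share, which include Cre chow mice 1, 5 and 6, it was 1.22 and did not pass (edgeR adjusted p = 0.082). With all libraries and no minimum count its log2 fold change was −0.40 in liver-Flcn-/- mice (adjusted p = 0.57), and liver-Flcn-/- against Cre mice on chow was 1.67 (adjusted p = 0.059). *Cd8a* was highest in Cre MCD mouse 3, the liver with muscle RNA.

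After *Cd4*, the granzymes fell furthest with MCD in liver-Flcn-/- mice. The promoters of *Gzma*, *Gzmb* and *Klrk1* are shown because the granzymes fell while *Klrk1*, a receptor of the same cells, did not pass. Each is the 250 bases before the RefSeq start on GRCm38.p6, read 5′ to 3′ on the strand of the gene (minus for all 3), at chr13:113100982-113101231, chr14:56262335-56262584 and chr6:129623865-129624114. Capitals mark TGTGGT, a core bound by RUNX factors, or its reverse complement ACCACA. RUNX factors are known regulators of cytotoxic lymphocyte genes.
Gzma: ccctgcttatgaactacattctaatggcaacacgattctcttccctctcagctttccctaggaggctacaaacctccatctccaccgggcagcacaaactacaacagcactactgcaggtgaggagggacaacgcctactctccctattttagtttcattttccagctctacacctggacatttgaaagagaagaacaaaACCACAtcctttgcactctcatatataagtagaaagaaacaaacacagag
Gzmb: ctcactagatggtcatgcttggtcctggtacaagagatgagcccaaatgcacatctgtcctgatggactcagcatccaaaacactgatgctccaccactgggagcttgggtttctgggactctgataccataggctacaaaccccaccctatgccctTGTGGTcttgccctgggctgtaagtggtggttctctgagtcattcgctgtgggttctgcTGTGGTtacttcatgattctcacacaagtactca
Klrk1: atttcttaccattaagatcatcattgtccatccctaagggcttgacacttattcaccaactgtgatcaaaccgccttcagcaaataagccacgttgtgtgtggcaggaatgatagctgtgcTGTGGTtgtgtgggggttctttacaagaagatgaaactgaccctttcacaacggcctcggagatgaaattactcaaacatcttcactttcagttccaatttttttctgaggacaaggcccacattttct
Of the 8 markers with a RefSeq entry, 4 held TGTGGT on either strand in these 250 bases (the 3 shown and *Nkg7*), as did 14% of 32851 promoters. The matches lie 50 to 45 bases before the start of *Gzma*, 93 to 88 and 34 to 29 bases before that of *Gzmb*, and 129 to 124 bases before that of *Klrk1*. For *Gzmb*, as for *Cd3e*, the bases after the RefSeq start were not found in the gene's own transcript. The positions for these genes therefore rest on the RefSeq start alone. GGAAGT, bound by ETS factors, was in 2 of the 8 (*Cd3e* and *Cd79a*) and in 19.7% of promoters. CAGCTG, a site of E2A, and CACGTG, a site of TFEB and TFE3, were in 0 of the 8 (13% and 6.02% of promoters), and so was the EBF site (0.779%). Both strands were searched, and a match is a description of the letters, not a site of binding.

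*Gzma* (ENSMUSG00000023132, chromosome 13, 113093825 to 113100981), granzyme A, had 2.10, 1.37, 1.21, 1.60 and 1.72 CPM in liver-Flcn-/- mice on chow and 0.148 to 0.775 CPM (median 0.506) on MCD. The groups did not overlap, and the fall was 3.29-fold (log2 −1.72, SE 0.386, edgeR adjusted p = 0.001). *Gzmb* (ENSMUSG00000015437, chromosome 14, 56258838 to 56262260), granzyme B, had 0.934, 1.19, 1.88, 1.54 and 1.40 CPM on chow and 0.197 to 0.646 CPM (median 0.326) on MCD. It too had no overlap and fell 3.49-fold (log2 −1.80, SE 0.412, edgeR adjusted p = 0.0012). *Cd79a*, described below, was the only other marker without overlap in this comparison, so 3 of the 9 tested markers showed none, against 14.8% of tested genes that were lower with no overlap. In Cre mice *Gzma* went from 0.745 ± 0.487 CPM (SD, n = 6) to 0.656 ± 0.173 CPM (SD, n = 5), and *Gzmb* from 0.577 ± 0.316 to 0.375 ± 0.251 CPM (same n). Neither passed in Cre mice, with log2 fold changes of −0.20 (SE 0.399) and −0.64 (SE 0.449) and edgeR adjusted p of 0.69 and 0.23.

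*Nkg7* (ENSMUSG00000004612, chromosome 7, 43437073 to 43438249), a membrane protein of cytotoxic granules, had 1.40, 1.19, 0.604, 1.27 and 0.916 CPM in liver-Flcn-/- mice on chow and 0.296 to 0.732 CPM (median 0.507) on MCD. Chow mouse 3 alone fell within the MCD range, and the fall was −0.99 (SE 0.356, edgeR adjusted p = 0.027). Leaving out 1 mouse at a time, this call was lost in 5 of 22 fits, without chow mice 1, 2 or 4 or MCD mice 1 or 3 of the liver-Flcn-/- groups (adjusted p up to 0.063), and also with no minimum count (adjusted p = 0.061). *Klrk1* (ENSMUSG00000030149, chromosome 6, 129610323 to 129623864) encodes NKG2D, an activating receptor of NK and CD8 T cells. It had 2.16 ± 0.322 CPM (SD, n = 5) on chow and 1.64 ± 0.244 CPM (SD, n = 6) on MCD, and did not pass (−0.40, SE 0.268, edgeR adjusted p = 0.24). In Cre mice *Klrk1* ranged from 0.964 to 3.4 CPM on chow, wider than in any other group.

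*Cd79a* (ENSMUSG00000003379, chromosome 7, 24897381 to 24902197), the alpha chain of the B cell receptor complex, had 1.56, 1.78, 1.48, 1.60 and 1.83 CPM in liver-Flcn-/- mice on chow, the narrowest spread of any marker in that group relative to its mean. On MCD it had 0.394 to 1.03 CPM (median 0.854), with no overlap, and the fall was −1.08 (SE 0.434, edgeR adjusted p = 0.048). This call lies at the threshold. It was lost in 14 of the 22 fits that left out 1 mouse (adjusted p up to 0.095) and with no minimum count (adjusted p = 0.079), although the log2 fold change stayed between −1.17 and −0.94 with 1 mouse left out. Cre mice on chow ranged from 0.237 to 2.07 CPM, and their 3 lowest values, 0.237, 0.338 and 0.402 CPM, came from the libraries of low mapping share. *Cd79b* (ENSMUSG00000040592, chromosome 11, 106311341 to 106314762), the beta chain, had 1.87 ± 0.73 CPM (SD, n = 5) on chow and 1.16 ± 0.401 CPM (SD, n = 6) on MCD in liver-Flcn-/- mice. It did not pass (−0.69, SE 0.333, edgeR adjusted p = 0.096).

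**Figure D2:**
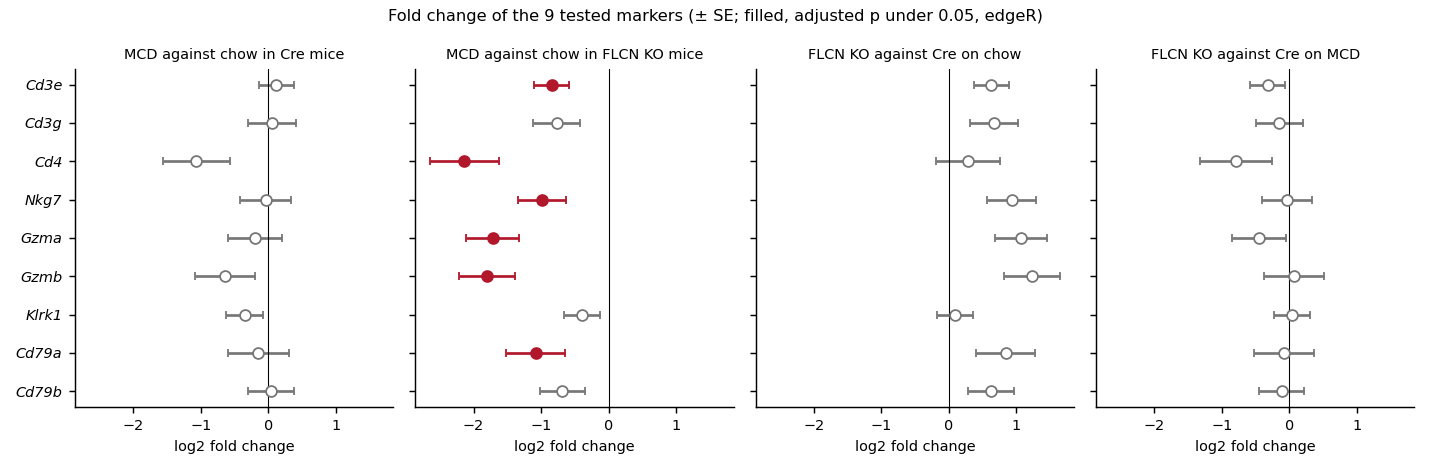
Log2 fold change (x axis) of the 9 tested markers in 4 comparisons, with bars of ± 1 SE and filled symbols at an edgeR adjusted p under 0.05. Only the MCD response of liver-Flcn-/- mice holds filled symbols, for 6 markers with values from −2.14 to −0.84, and all 9 lie above 0 for liver-Flcn-/- against Cre mice on chow.

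Summed over the 10 markers, the level was 14.8 ± 0.905 CPM (SD, n = 5) in liver-Flcn-/- mice on chow, with 13.7 to 15.9 CPM in single mice. The other groups were lower on average, at 9.24 ± 3.00 CPM (SD, n = 6) in Cre mice on chow, 8.44 ± 2.67 CPM in Cre mice on MCD (SD, n = 5) and 7.46 ± 1.44 CPM in liver-Flcn-/- mice on MCD (SD, n = 6). The lowest liver-Flcn-/- chow mouse, at 13.7 CPM, was above every mouse of the other groups but Cre chow mouse 3, at 14.1 CPM. Among Cre mice on chow the sums were 6.48, 6.7 and 7.15 CPM in the libraries of low mapping share (mice 1, 5 and 6) and 10.4, 14.1 and 10.6 CPM in the others. In liver-Flcn-/- mice on chow they were 15.3 and 14 CPM (mice 1 and 3) and 15.9, 15.2 and 13.7 CPM, so the gap between genotypes was smaller without these libraries. *Klrk1* was the most abundant marker of the sum in each group, and no test was run on the sum.

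Between genotypes on chow, 0 of the 9 tested markers passed in edgeR, while 8.62% of tested genes did, 5.52% higher and 3.10% lower. All 9 were higher in liver-Flcn-/- mice, by a median log2 fold change of 0.67 (all tested genes −0.03). At an unadjusted p under 0.05 there were 4, *Cd3e* (0.63), *Nkg7* (0.93), *Gzma* (1.07) and *Gzmb* (1.23), with edgeR adjusted p of 0.14, 0.12, 0.086 and 0.066. The share of all tested genes at an unadjusted p is not given here or below. Counts of markers at that threshold therefore have no background to be read against. Other tools called 2 (limma-voom, *Gzma* and *Gzmb*), 1 (DESeq2, *Gzmb*) and 0 (exact permutation). Of all tested genes they called 4.49%, 6.55% and 2.77% higher in the same order. The higher level on chow is part of the same measurement as the fall with MCD, since both use the liver-Flcn-/- mice on chow.

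Between genotypes on MCD, in edgeR 0 of 9 passed, none at an unadjusted p under 0.05, and limma-voom, DESeq2 and the exact permutation test also called 0, while 16.6% of tested genes passed in edgeR, 8.06% higher and 8.53% lower in liver-Flcn-/- mice. The log2 fold changes ran from −0.79 for *Cd4* to 0.07 for *Gzmb*, with a median of −0.11, and standard errors from 0.26 to 0.53. The response to MCD was compared between genotypes by the interaction term. It was negative for all 9 markers (median −0.95, all tested genes 0.03), 0 of 9 passed in edgeR against 8.83% of tested genes (5.54% negative), and 2 had an unadjusted p under 0.05. These were *Cd3e* (−0.96, SE 0.37, adjusted p = 0.11) and *Gzma* (−1.52, SE 0.555, adjusted p = 0.089). limma-voom called 1 (*Gzma*) and DESeq2 0, and of all tested genes they called 4.35% and 7.57% negative. In this edgeR fit the responses of the genotypes were therefore not shown to differ for any of the 9 markers. With edgeR's filterByExpr and with the uniquely mapped share as covariate 1 marker passed in each, with a negative value. Of all genes 5.30% and 6.26% were called negative in these fits. For the MCD response of Cre mice, 1 marker (*Cd4*) had an unadjusted p under 0.05, and limma-voom, DESeq2 and the exact permutation test called 0.

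The counts changed when the libraries that stood apart were set aside. Leaving out the 5 chow libraries of low mapping share left only females on chow, 3 of each genotype, while the MCD groups kept both sexes. In this fit sex is therefore not balanced between the diets. Without the 5 chow libraries of low mapping share, *Cd8a* passed the minimum count, and 8 of the 10 markers fell with MCD in liver-Flcn-/- mice, all but *Klrk1* (−0.48) and *Cd8a* (−0.18), while 21.7% of 14271 genes fell. In Cre mice 2 fell, *Gzmb* (−1.18, edgeR adjusted p = 0.047) and *Klrk1* (−0.82, edgeR adjusted p = 0.011), while 24.8% of genes fell. Between genotypes on chow 0 passed in edgeR, where 2.62% of genes were called higher and 0.848% lower, with log2 differences from −0.30 for *Klrk1* to 1.01 for *Cd8a*. The log2 interaction had a median of −0.61 over the 9 markers tested in all livers and was −1.40 for *Cd8a*. The higher level of all 9 markers in liver-Flcn-/- mice on chow thus did not hold for *Klrk1* without these libraries.

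Within females, 6 markers fell with MCD in liver-Flcn-/- mice (20.7% of 14095 genes fell), namely *Cd3e*, *Cd3g*, *Cd4*, *Nkg7*, *Gzma* and *Gzmb*. In female Cre mice 4 fell (26.1% of genes), *Nkg7* (−1.04), *Gzmb* (−1.83), *Klrk1* (−0.96) and *Cd79a* (−1.31), with edgeR adjusted p from 0.0033 to 0.034. Within males, *Cd4* fell in both genotypes (−1.62 in Cre and −2.50 in knockout males, edgeR adjusted p = 0.01 and 0.0012), and it was the only call in liver-Flcn-/- males (11.5% of 13967 genes fell). There *Gzma*, *Gzmb* and *Cd79a* did not pass but had log2 fold changes of −1.65, −1.56 and −1.11 (edgeR adjusted p = 0.089, 0.054 and 0.1), near those in all mice, whereas *Cd3e* and *Nkg7* were closer to 0 (−0.63 and −0.76). In Cre males *Cd79a* rose (1.87, edgeR adjusted p = 0.016) and so did *Cd8a*, which passed the minimum count in this subset (3.04, adjusted p = 0.003). The 2 Cre males on MCD were mice 3 and 4, the livers with 3799 and 180 CPM of muscle genes. The part of this in the values of Cre males was not tested. Of the 13967 genes 18.5% rose and 2101 fell in Cre males. Only 2 to 3 mice stood in each group of 1 sex.

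In Cre mice the male minus female difference in the MCD response passed for 2 of the 9 tested markers, against 3.19% of tested genes. They were *Gzmb* (2.81, SE 0.73, edgeR adjusted p = 0.042) and *Cd79a* (3.16, SE 0.688, edgeR adjusted p = 0.018). It was positive for 8 of the 9, *Cd4* being the exception at −1.73. The 2 Cre males on MCD were mice 3 and 4, with 3799 and 180 CPM of muscle genes, and the part of this in the difference was not tested. In liver-Flcn-/- mice 0 of 9 passed, and 0.676% of tested genes did. On chow, 3 of the 9 markers passed between male and female Cre mice, while 6.62% of tested genes did. Males had 1.76 to 2.09 CPM of *Cd4* and females 0.365 to 0.668 CPM (log2 difference 1.91, edgeR adjusted p = 0.0093). In the other direction, males had 0.237 to 0.402 CPM of *Cd79a* and females 0.850 to 2.07 CPM (−2.15, adjusted p = 0.013), and *Klrk1* was also lower in males (−1.19, adjusted p = 0.017). On chow these differences go with the mapping share as well as with sex, and the 2 cannot be told apart.

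**Figure D3:**
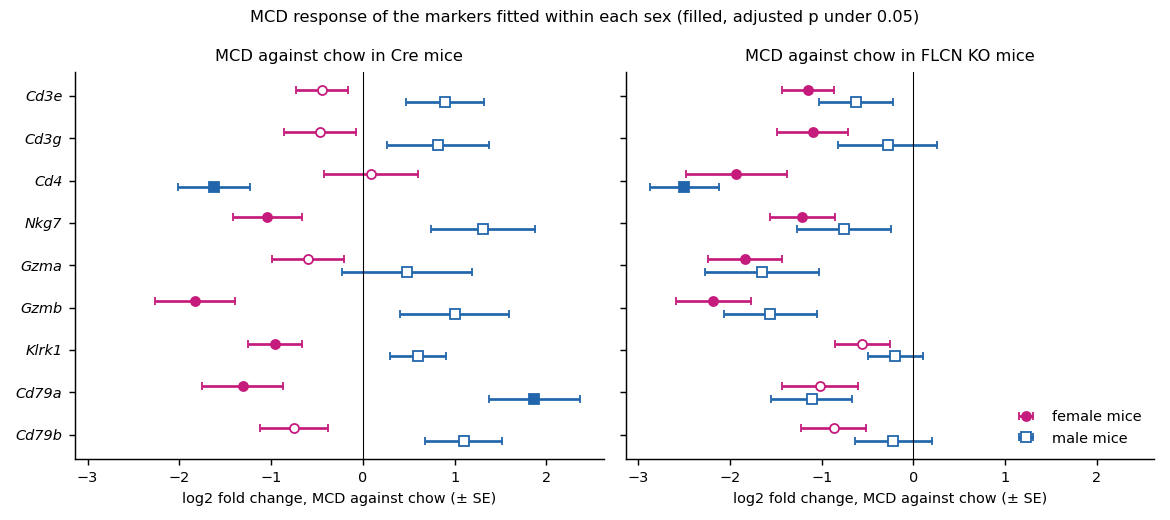
Log2 fold change with MCD (x axis, ± 1 SE) of the 9 tested markers fitted within female mice (circles) and within male mice (squares), for Cre mice on the left and liver-Flcn-/- mice on the right. Filled symbols passed an edgeR adjusted p under 0.05. In Cre mice 8 markers lie below 0 in females and above 0 in males, with Cd4 the other way round, and in liver-Flcn-/- mice all values of both sexes lie below 0.

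Per kilobase of exon, the order of the markers over all livers was *Cd79b* (0.949 CPM per kb), *Gzma* (0.84), *Nkg7* (0.727), *Cd79a* (0.7), *Gzmb* (0.463), *Cd3g* (0.353), *Klrk1* (0.258), *Cd4* (0.221), *Cd3e* (0.216) and *Cd8a* (0.139), all as mean CPM per kb. The first 4, each against its neighbour, and *Cd4* against *Cd3e* differed by less than the SD between mice of either gene in every group. The other neighbouring pairs differed by more than at least 1 of these SDs. The order was not the same in each group. In liver-Flcn-/- mice on chow *Gzma* (1.59 CPM per kb) was above *Cd79b* (1.31). On MCD *Cd4* was below *Cd8a*, at 0.14 and 0.186 in Cre mice and 0.0805 and 0.14 in liver-Flcn-/- mice. After subtracting group means, log2 CPM of the markers was positively correlated across the 22 livers in all 28 pairs without *Cd4* (median r = 0.55, range 0.21 to 0.66). The 8 pairs with *Cd4* had a median r of −0.28 (−0.45 to −0.20). These points share libraries and depth and are given as a description.

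Other lymphocyte genes were taken from 5 lists of 146 genes, of which 83 could be tested. With MCD 24 rose (28.9%, against 29.3% of all tested genes) and 12 fell (14.5%, against 28.2%) in Cre mice. In the knockout 5 rose (6.02%, against 22.5%) and 23 fell (27.7%, against 22.5%). The rise in Cre mice and the fall in the knockout are thus near the background. On chow 11 were higher in liver-Flcn-/- mice (13.3%, against 5.52%) and 0 lower. Without the 5 chow libraries of low mapping share 3 passed there, where 2.62% of genes were called higher and 0.848% lower, so this count too is then near the background. On MCD 3 were higher (3.61%, against 8.06%) and 10 lower (12.0%, against 8.53%). The interaction passed for 13 (15.7%, against 5.54% of tested genes that were negative), all with a lower response in liver-Flcn-/- mice. The median interaction was −0.69 over the 83 and 0.03 over all tested genes.

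Of 33 T cell receptor and signalling genes 19 could be tested. With MCD 4 rose (21.1%, against 29.3% of all tested genes) and 2 fell (10.5%, against 28.2%) in Cre mice. In the knockout 0 rose, against 22.5%, and 4 fell (21.1%, against 22.5%), which is near the background. *Zap70*, the kinase that binds the CD3 chains, fell in both genotypes. It went from 19.4 ± 4.59 CPM on chow (SD, n = 6) to 4.62 ± 1.12 CPM on MCD (SD, n = 5) in Cre mice. The knockout went from 26.8 ± 5.09 CPM (SD, n = 5) to 3.13 ± 0.984 CPM (SD, n = 6). The log2 fold changes were −2.07 and −3.09 (edgeR adjusted p = 9.8e-08 and 6.8e-10), and the interaction of −1.02 (edgeR adjusted p = 0.038) was lost in 12 of 22 fits that left out 1 mouse. *Cd3e* and *Cd3g* did not pass in Cre mice, where their means on chow were 0.791 and 1.02 CPM, well below that of *Zap70*. Which cells made *Zap70* was not tested. *Themis*, which acts in T cell selection, went the other way in Cre mice, from 0.482 ± 0.227 to 4.64 ± 2.43 CPM (log2 3.29, edgeR adjusted p = 8.1e-06), and did not pass in liver-Flcn-/- mice (2.14 ± 1.40 and 1.57 ± 0.854 CPM, log2 −0.42, adjusted p = 0.46). Its interaction was −3.71 (SE 0.658, edgeR adjusted p = 0.0021). *Lcp2*, an adaptor of T cell signalling also made by myeloid cells, fell in liver-Flcn-/- mice and did not pass in Cre mice (−0.59 and 0.28, edgeR adjusted p = 0.0064 and 0.16, interaction −0.88, adjusted p = 0.026). *Tcf7*, a transcription factor of T cells, passed in neither genotype (0.50 and −0.22, edgeR adjusted p = 0.081 and 0.48).

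Of 35 NK and cytotoxic effector genes 11 could be tested, and the interaction passed for 0. With MCD 4 rose in Cre mice (36.4%, against 29.3% of all tested genes) and 1 fell (9.09%, against 28.2%). In the knockout 0 rose and 1 fell (9.09%, against 22.5%). *Klrd1* (CD94), the partner of NKG2 receptors, rose in Cre mice from 0.439 ± 0.221 to 1.16 ± 0.365 CPM (log2 1.36, edgeR adjusted p = 0.0025), unlike *Gzma*, *Gzmb* and *Nkg7*, which did not pass there. *S1pr5*, a receptor for the exit of NK cells from tissue, fell in both genotypes (−2.24 and −2.53, edgeR adjusted p = 2.4e-05 and 9.8e-06). *Il12rb2*, a chain of the receptor for interleukin 12, had 0 to 0.364 CPM in Cre mice on chow and 0.0485 to 0.281 CPM on MCD. In liver-Flcn-/- mice it had 35.8, 5.35, 48.8, 2.81 and 0.970 CPM on chow and 0.537 to 37.8 CPM (median 13.6) on MCD, above every Cre mouse on either diet (edgeR adjusted p = 0.00083 on chow and 0.001 on MCD). The values of 35.8 and 48.8 CPM are from chow mice 1 and 3, the males with libraries of low mapping share, and the male minus female difference passed in liver-Flcn-/- mice on chow (3.81, edgeR adjusted p = 0.0019) and not on MCD (3.10, adjusted p = 0.078). On chow mean *S1pr5* was 6.37 CPM in Cre mice and mean *Il12rb2* 18.8 CPM in liver-Flcn-/- mice. Mean *Nkg7* was 0.552 and 1.08 CPM in these groups. Which cells made *S1pr5* and *Il12rb2* was not tested. *Ctsw* and *Zbtb16* passed in no comparison, and *Serpinb9*, an inhibitor of granzyme B, was higher in liver-Flcn-/- mice on chow (0.58, edgeR adjusted p = 0.016) and rose with MCD in Cre mice (0.36, adjusted p = 0.044, lost in 8 of 22 fits that left out 1 mouse).

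In liver-Flcn-/- mice on MCD immunoglobulin genes were among those that fell. Of 22 tested B cell genes 2 rose and 6 fell (27.3%, near the 22.5% of all tested genes). Of 9 tested plasma cell and secreted immunoglobulin genes 0 rose and 6 fell (66.7%, against the same 22.5%). *Ighm*, the heavy chain of IgM, had 54.9, 30.2, 54.4, 53.9 and 31.0 CPM on chow and 2.91 to 6.03 CPM (median 3.62) on MCD, a 10.7-fold fall with no overlap (log2 −3.42, SE 0.672, edgeR adjusted p = 0.00029). *Igha*, the heavy chain of IgA, fell by 2.20 on the log2 scale (adjusted p = 0.00023), *Jchain*, which joins IgA and IgM units, by 2.06 (adjusted p = 0.0019) and *Igkc*, the kappa light chain, by 1.82 (adjusted p = 0.0033, all from edgeR). Within knockout males these values were −1.34, −1.28 and −1.15 and did not pass (edgeR adjusted p = 0.054, 0.22 and 0.18), and within knockout females all 3 fell (−2.87, −2.74 and −2.27). In Cre mice *Igha*, *Jchain* and *Igkc* did not pass with MCD (−0.97, −0.54 and −0.09, edgeR adjusted p = 0.051, 0.35 and 0.88). Within female Cre mice all 3 fell (−1.73, −1.80 and −1.59, edgeR adjusted p = 0.00039, 0.00032 and 0.00018), and within males they were 0.36, 1.02 and 1.67, where only *Igkc* passed (adjusted p = 0.042). The male minus female response in Cre mice passed for *Igkc* (3.23, edgeR adjusted p = 0.0088) and *Jchain* (2.79, adjusted p = 0.049). Its 2 males on MCD were Cre mice 3 and 4, with 3799 and 180 CPM of muscle genes, and the part of this was not tested. The interaction passed for *Ighm* (−4.18, edgeR adjusted p = 0.0079), with 3.29 to 20.6 CPM in Cre mice on chow and 4.65, 2.28, 72.4, 7.62 and 4.66 CPM on MCD. The value of 72.4 CPM is from Cre MCD mouse 3, the liver with muscle RNA, and without it the interaction was −2.24. Liver-Flcn-/- mice on chow had more *Ighm* than Cre mice without overlap (2.04, edgeR adjusted p = 0.048), a call lost in 16 of 22 fits that left out 1 mouse. Some immunoglobulin genes are close in sequence, so their reads may be split among them. How far this touches the genes named here was not tested.

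*Blnk*, the adaptor below the B cell receptor that macrophages also use, rose in both genotypes, in Cre mice from 1.94 ± 0.597 to 12.0 ± 2.81 CPM and in liver-Flcn-/- mice from 11.1 ± 1.90 to 20.1 ± 4.11 CPM (log2 2.65 and 0.86, interaction −1.78, edgeR adjusted p = 0.0008). *Syk*, the kinase of that receptor and of myeloid receptors, rose in Cre mice and did not pass in liver-Flcn-/- mice (1.15 and −0.11, edgeR adjusted p = 3.6e-05 and 0.67, interaction −1.26, adjusted p = 0.0075). *Lyn* fell in both (−0.47 and −0.63). *Cd81*, a tetraspanin of B cells that hepatocytes also make, was higher in liver-Flcn-/- mice on both diets (0.59 and 0.95, edgeR adjusted p = 0.0025 and 1.5e-05). *Tnfrsf13b* (TACI), a receptor of B and plasma cells, and *Prdm1*, a factor of plasma cells, rose in Cre mice (1.62 and 1.42, edgeR adjusted p = 0.0038 and 0.0024), and of these *Tnfrsf13b* passed the interaction (−2.07, adjusted p = 0.042, lost in 14 of 22 fits that left out 1 mouse). *Xbp1* and *Sdc1*, plasma cell genes that hepatocytes also make, fell with MCD in liver-Flcn-/- mice (−0.47 and −0.56), and *Xbp1* also in Cre mice (−0.52).

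Of 29 chemokines and receptors that act on lymphocytes 22 could be tested. With MCD 10 rose (45.5%, against 29.3% of all tested genes) and 5 fell (22.7%, against 28.2%) in Cre mice. The knockout had 3 that rose (13.6%, against 22.5%) and 6 that fell (27.3%, near the 22.5%), and 6 passed the interaction, all negative (27.3%, against 5.54%). *Ccl5*, a chemokine made by and attracting T and NK cells, rose in Cre mice from 0.795 ± 0.384 to 2.59 ± 0.590 CPM (log2 1.67, edgeR adjusted p = 4.8e-05) and had 2.30 ± 0.502 and 1.70 ± 0.539 CPM in liver-Flcn-/- mice. *Cx3cr1*, the receptor for fractalkine on cytotoxic lymphocytes and monocytes, rose in Cre mice by 3.34 and was higher in liver-Flcn-/- mice on chow by 3.03 (edgeR adjusted p = 3.5e-06 and 0.00018). The interaction was −2.10 for *Ccl5* and −3.75 for *Cx3cr1* (edgeR adjusted p = 0.0033 and 0.0011). *Cxcl9*, a chemokine for activated T cells, fell in liver-Flcn-/- mice (−1.80, edgeR adjusted p = 0.00021) and was lower than in Cre mice on MCD (−1.01, adjusted p = 0.045), a call lost in 11 of 22 fits that left out 1 mouse and in limma-voom (adjusted p = 0.074) and the exact permutation test (adjusted p = 0.14). *Cxcl12* and *S1pr1*, mostly made by stromal and endothelial cells, fell in both genotypes, and *Il15ra* passed in no comparison.

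Several calls on other lymphocyte genes ended in edgeR without the 5 chow libraries of low mapping share. Between genotypes on chow these were *Cd81* (adjusted p = 0.27), *Ighm* (0.23), *Serpinb9* (0.19), *Il12rb2* (0.15), *Themis* (0.13) and *Ccl5* (0.13). Their log2 differences were then 0.28, 2.17, 0.56, 4.16, 1.95 and 0.95 in the same order. The calls that ended with MCD in Cre mice were *Serpinb9* (adjusted p = 0.11) and *Xbp1* (0.54). Those for the interaction were *Lcp2* (0.14), *Tnfrsf13b* (0.091), *Zap70* (0.086) and *Syk* (0.071). The log2 fold change of *Serpinb9* was then 0.38 and that of *Xbp1* −0.10, and the 4 interactions lay between −2.08 (*Tnfrsf13b*) and −0.74 (*Lcp2*).

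The 10 pan-leukocyte genes, led by *Laptm5*, summed to 110 ± 19.9 CPM in Cre mice on chow, 187 ± 33.1 CPM on MCD, and 129 ± 6.54 and 116 ± 24.4 CPM in liver-Flcn-/- mice (SD, n = 6, 5, 5 and 6). With MCD 9 of the 10 rose in Cre mice (90.0%, against 29.3% of all tested genes), whereas 0 rose and 1 fell in the knockout, where 22.5% of all tested genes rose and 22.5% fell. The same shares, and the 28.2% that fell in Cre mice, stand behind each count of the lists that follow. *Ptprc* (CD45), made by all leukocytes, rose in Cre mice (0.55, edgeR adjusted p = 0.044, lost in 8 of 22 fits that left out 1 mouse, and 0.30 with adjusted p = 0.4 without the 5 chow libraries of low mapping share) and did not pass in liver-Flcn-/- mice (−0.44, adjusted p = 0.12). The 12 monocyte and macrophage genes, led by *Lyz2*, summed to 178 ± 26, 483 ± 141, 222 ± 28 and 351 ± 128 CPM in the same order, with 9 rising in Cre mice (75.0%). In liver-Flcn-/- mice 4 rose (33.3%) and 2 fell (16.7%), not far from the shares of all genes. Of 6 tested neutrophil genes, led by *S100a9*, 5 rose in Cre (83.3%) and 4 in liver-Flcn-/- mice (66.7%). Of 9 tested dendritic cell genes, led by *Ly6d*, 6 rose in Cre mice (66.7%) and 2 in the knockout (22.2%, near the background). *Ly6d*, which other cells also make, rose by 5.36 and 4.11 (edgeR adjusted p = 3.1e-06 and 0.0001). Of 7 Kupffer cell genes, led by *Cd5l*, 1 rose and 4 fell (57.1%) in Cre mice and 3 fell (42.9%) in liver-Flcn-/- mice. The lymph node stroma genes *Glycam1* and *Madcam1* had at most 0.102 CPM summed in any liver. In liver-Flcn-/- mice hepatocyte genes fell as well, 7 of 9 with MCD (*Alb* −0.59, edgeR adjusted p = 0.0082), and 7 of 9 in Cre mice (77.8% in each). Of 5 tested erythroid genes, led by *Hbb-bs*, 3 rose in Cre mice (*Hbb-bs* 1.00, edgeR adjusted p = 0.01, and 0.096 without the 5 chow libraries of low mapping share), 1 fell in the knockout (20.0%, near the background), 1 was higher in the knockout on chow and 2 passed the interaction. The part of these cell types in the results for the 10 markers was not tested.

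**Figure D4:**
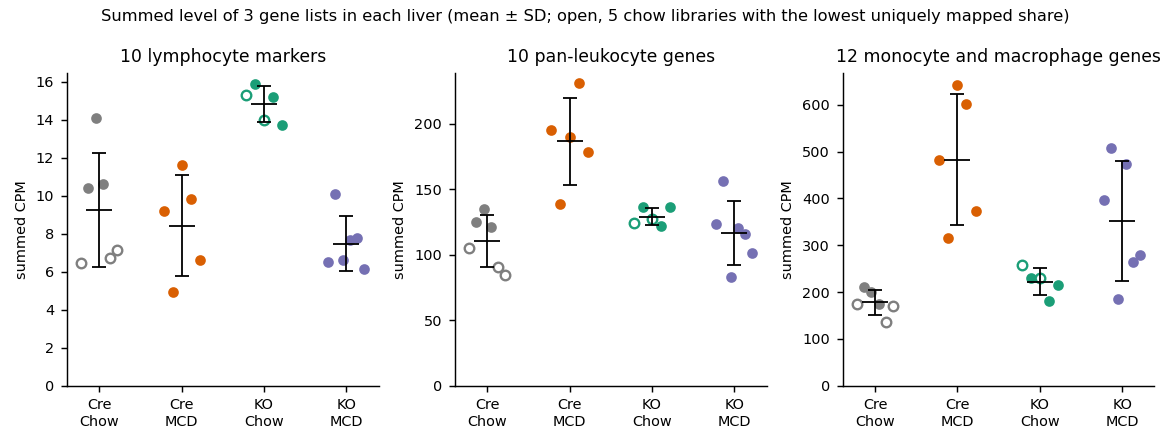
Summed CPM (y axis) of the 10 lymphocyte markers, 10 pan-leukocyte genes and 12 monocyte and macrophage genes in each liver by group (x axis), with the mean ± SD as bars and the 5 chow libraries with the lowest uniquely mapped share as open circles. The lymphocyte markers are highest in liver-Flcn-/- mice on chow (mean 14.8 CPM), and the other 2 lists in Cre mice on MCD (187 and 483 CPM).

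The genes outside all lists whose log2 CPM was most like that of a marker, after subtracting group means over the 22 libraries, were found for 1 marker of each lineage. For *Cd3e* they were *Tpcn2*, *Tbxas1* and *Lgals1* (Pearson r = 0.84, 0.82 and 0.81). For *Nkg7* they were *Psap*, *Hpgds* and *Prkcb* (0.77, 0.76 and 0.75), and for *Cd79a* *Nuak1*, *Zbtb4* and *Vnn3* (0.88, 0.84 and 0.83). Sex and mapping share were not subtracted. In Cre mice on chow *Cd79a* (−2.15), *Vnn3* (−1.13, edgeR adjusted p = 0.00015) and *Zbtb4* (−0.39, adjusted p = 0.025) were all lower in males, whose libraries had the low mapping share, and the part of this in the likeness was not tested. With MCD in liver-Flcn-/- mice, where *Cd3e*, *Nkg7* and *Cd79a* fell, *Psap*, *Hpgds* and *Vnn3* rose (0.53, 1.05 and 0.81, edgeR adjusted p = 6.3e-05, 0.00029 and 0.006). *Zbtb4* fell (−0.28, adjusted p = 0.019), and the other 5 did not pass. *Lgals1* and *Hpgds* were also among the genes that passed the interaction (−2.05 and −1.40, edgeR adjusted p = 0.0024 and 0.0054). Without the 5 chow libraries of low mapping share that of *Hpgds* was −1.06 and did not pass (adjusted p = 0.068).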

How the data were processed

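The authors deposited raw gene counts for 22 livers. Per the study's methods, reads were trimmed with Trimmomatic (bases of Phred score under 30), aligned with STAR to GRCm38 and counted with HTSeq, tools the submitters' processing notes also list. Adapters with molecular identifiers are named, but a collapsing step, the annotation release, the tool versions and the strand setting are not given in the sources used here, so intervals and p-values may rest on PCR copies.

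Groups came from the sample labels, where 1 label stands for 1 mouse. Genes with a mean of at least 10 counts over all libraries (14062 of 55573) were fitted in 1 model of the 4 groups with edgeR 4.0.16 (R 4.3.3; TMM, quasi-likelihood test, two-sided, Benjamini-Hochberg adjustment, calls at 0.05). Alternatives were limma 3.58.1, DESeq2 1.42.0, an exact permutation test of log2 CPM (prior count 2), other scaling and filters, covariates, a replicate block and leaving out libraries. The fits within each sex and the sex by diet term were chosen after seeing the data.

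The members and lists were chosen with earlier results of these data known. Besides *Flcn*, the 10 members and *Ptprc*, named genes were the 4 most abundant tested genes and the 2 with the lowest interaction p of each lymphocyte list, the most abundant gene of each other list, and the 3 genes most like 1 marker of each lineage. A gene that this rule names is not reported here. Positions and exon lengths are from GENCODE M21 on GRCm38 (93 genes of the table had none), and promoters from RefSeq GRCm38.p6, where 8 of the 10 members matched.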

Additional observations from a re-analysis of the deposited data

Results flagged for a closer look

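Within groups of 5 or 6 livers, 3 marker values lay far from the others. They were *Cd3e* in liver-Flcn-/- MCD mouse 2 (1.21 CPM, high), *Cd3g* in liver-Flcn-/- chow mouse 3 (0.739 CPM, low) and *Cd79b* in Cre MCD mouse 3 (2.34 CPM, high). Chance flags about 1 in 20 groups, and 40 groups were examined.

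The MCD response differed between the genotypes by the edgeR interaction term for 13 named genes, all with a lower response in liver-Flcn-/- mice. Of all tested genes 8.83% passed this term, and 5.54% of all tested genes passed it with a negative value. *Themis*, *Lcp2*, *Blnk*, *Syk*, *Tnfrsf13b*, *Cx3cr1* and *Ccl5* were named for a low interaction p, so the number of named genes that passed is no test. On the log2 scale the interaction was −1.02 for *Zap70*, −0.88 for *Lcp2* and −3.71 for *Themis* among T cell genes. Among B cell and plasma cell genes it was −4.18 for *Ighm*, −1.78 for *Blnk*, −1.26 for *Syk* and −2.07 for *Tnfrsf13b*. For *Ighm* this includes Cre MCD mouse 3, the liver with muscle RNA, at 72.4 CPM against a group median of 4.66 CPM. Without that mouse the *Ighm* interaction was smaller in size, as given above. The interaction was −3.75 for *Cx3cr1* and −2.10 for *Ccl5*, −1.06 for *Laptm5* and −1.26 for *Lyz2*, and −2.05 for *Lgals1* and −1.40 for *Hpgds*. Without the 5 chow libraries of low mapping share 7 of the 13 did not pass in edgeR, with *Lcp2* at −0.74, *Syk* at −1.07, *Tnfrsf13b* at −2.08, *Laptm5* at −0.86, *Lyz2* at −0.99 and *Hpgds* at −1.06 (adjusted p = 0.14, 0.071, 0.091, 0.067, 0.17 and 0.068), and *Zap70* at adjusted p = 0.086.

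The male minus female MCD response in Cre mice differed from 0 in edgeR for the markers *Gzmb* (2.81) and *Cd79a* (3.16) and for the other named genes *Igkc* (3.23), *Jchain* (2.79), *Ccl5* (1.66) and *Vnn3* (1.37), in a term added after seeing the data. Of all tested genes 3.19% passed this term. The 2 Cre males on MCD were mice 3 and 4, with 3799 and 180 CPM of muscle genes. On chow the males were the libraries of low mapping share.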

How the results depend on the processing

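The fall of *Cd3e*, *Cd4*, *Gzma* and *Gzmb* with MCD in liver-Flcn-/- mice was kept in all 22 fits that left out 1 mouse. With 1 mouse left out, the number of markers called was 4 to 6 for MCD in liver-Flcn-/- mice, 0 to 1 for MCD in Cre mice, for the genotypes on chow and for the interaction, and 0 to 0 for the genotypes on MCD. For the 83 other lymphocyte genes these counts were 22 to 31, 33 to 43, 7 to 12, 9 to 19 and 7 to 19 in the same order. The share of all tested genes called in each of these fits is not given here. These ranges therefore have no background to be read against.

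For markers, MCD in Cre mice gave 0 calls in the main fit. In other fits 1 marker rose with no minimum count (15.1% of all genes rose there) and 1 with edgeR's filterByExpr (28.7%). Falls numbered 1 with the uniquely mapped share as covariate, where 25.7% of all genes fell. There were 2 without the 5 chow libraries of low share (24.8%) and 4 within females (26.1%). Within males 2 markers rose (18.5% of all genes) and 1 fell (2101 of 13967 genes). The 6 calls in liver-Flcn-/- mice became 4 with no minimum count (without *Nkg7* and *Cd79a*; 9.51% of all genes fell in that fit), 5 with sex as covariate (22.7%), 9 with the mapped share (24.1%), 8 without the 5 libraries (21.7%), 1 within males (11.5%) and 0 at a mean count of at least 50, where no marker was left to test. The genotypes on chow gave 0, but 2 with limma-voom and 1 each with DESeq2, filterByExpr, only the groups compared, the mapped share and within males. The interaction gave 0, but 1 each with limma-voom, filterByExpr and the mapped share, all negative. Of all genes 4.35%, 5.30% and 6.26% were called negative there. Between these fits the share of all genes called moved too, from 15.1% to 30.1% rising with MCD in Cre mice and from 2.02% to 6.55% higher in the knockout on chow. The cause of these moves was not tested.

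For other lymphocyte genes, the 36 calls in Cre mice became 18 at a mean count of at least 50, where 30.1% of all genes rose and 29.2% fell. The 28 in liver-Flcn-/- mice became 15 within males, where 9.32% of all genes rose and 11.5% fell. The 11 calls on chow became 6 with the exact permutation test, 7 at a mean count of at least 50, 3 without the 5 libraries, 5 within females and 5 within males. In the same order 2.77%, 5.78%, 2.62%, 3.27% and 2.02% of all genes were called higher there. The 13 calls on MCD became 4 with the permutation test, 5 within males and 7 where a log2 fold change of at least 1 was also required. Of all genes 5.26% were higher and 3.68% lower with the permutation test, and 2.14% and 3.01% within males. The 13 interaction calls became 5 within males, where 0.0286% of all genes were called positive and 0.422% negative.

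Some values changed sign. With MCD in Cre mice, *Cd79a* was 1.87, *Igkc* 1.67 and *Alb* 0.03 within males, and *Ighm* was −1.14 within females and from −1.18 (without Cre MCD mouse 3) to 1.04 with 1 mouse left out. Between genotypes on MCD, *Ighm* was 0.02 and *Myh1* 2.19 within females. The cause was not tested.

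Replicate numbers are shared by the groups, but same-numbered mice did not deviate together (mean correlation −0.0842 between diets in Cre mice, −0.0112 in the knockout, 0.0614 for the genotypes on chow and 0.129 on MCD), so they share only a number. With the replicate block the markers called were 0 for MCD in Cre mice, 5 for MCD in liver-Flcn-/- mice (all lower, without *Cd79a*), 1 on chow (*Gzmb*, higher), 0 on MCD and 0 for the interaction. The other lymphocyte genes called with the block were 35, 29, 7, 8 and 6. Over all 14062 genes the block gave positive calls for 28.2%, 20.9%, 4.42%, 6.95% and 1.42% in the same order. Its negative calls made up 26.8%, 20.9%, 1.76%, 6.36% and 2.51%.

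Depth limits these markers, with 1 to 55 counts per gene and library.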
